A study of Rattus norvegicus with 30 samples.

Results

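Methylation was described for the cytosines of a segment of rat chromosome 19, chr19:200000-450000 in the rn5 build, around the locus LOC100912892. All cytosines with a methylation ratio within these bounds were taken, and CpG, CHG and CHH sites (H is any base but G) were kept apart. The segment was picked with earlier results of these data known, around CpGs that the study lists under this locus, so the ratios of those listed CpGs are given as a description. The cells are those of the medial prefrontal cortex (mPFC) of male Fischer 344 rats: 10 young rats of 5 to 6 months and 20 aged rats of 17 to 22 months, all trained on a set shifting task before the tissue was taken. By the number of trials to criterion, 9 of the aged rats were labelled impaired (AI) and 11 unimpaired (AU). The split was made at the mean of the aged rats' scores, so AI and AU are the 2 sides of 1 scale and not separate conditions. Each rat gave 1 bisulfite sequencing library. The ratio is the share of a cytosine's reads that were methylated, and it is listed for a rat only where at least 5 reads covered the site. The ratios come as an age set, with aged against young rats, and an impairment set, with AI against AU rats, and the same 20 aged rats are in both.

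In the age set the segment held 384 of the 85484 CpG sites, 2648 of the 266960 CHG sites and 7222 of the 707223 CHH sites. In the impairment set it held 441 of 80903, 2835 of 256337 and 7752 of 687718, respectively. Of the whole chromosome's sites in the age set, 11.1% of the CpGs, 15.2% of the CHG sites and 15.8% of the CHH sites were in this segment. The other stretches of the same length on chromosome 19 that had any site held a median of 4 CpGs, and at most 353.

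DNA methylation in mammals is found mainly at CpG dinucleotides, which read as CpG on both strands and are usually methylated on both. Cytosines in other contexts carry far less methylation in most tissues, and neurons are a known exception, in which CHG and CHH methylation builds up as the brain matures. Bisulfite turns unmethylated cytosine into uracil, which is read as thymine, while methylated cytosine still reads as cytosine. The study's lists place CpGs of this segment in 2 gene models. They give 7 CpGs, from position 300594 to 322776, to AABR06096719.1 and 7, from 337695 to 416459, to LOC100912892, nearly all of them as intronic. No function is stated for either here. An rn5 sequence or annotation was not used, so no bases of the segment are shown.

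The sites were clustered rather than spread over the segment. They ran from position 204128 to 417826 in the age set, and no site lay between there and the upper bound. The widest gap between neighbouring CpGs went from position 252007 to 281277, which is 29270 bp. Windows of 25000 bp held between 6 and 130 CpGs where they held any, with the most, 130, between positions 300000 and 324999. The nearest CpG below the segment, at position 198753, had mean ratios of 0.582 (aged) and 0.568 (young), and the first one inside, at 205859, had 0.893 and 0.944. At the upper end the last CpG inside, at 417757, had 0.494 in aged and 0.589 in young rats, and the nearest one above, at 456553, had 0.411 and 0.133.

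**Figure D1:**
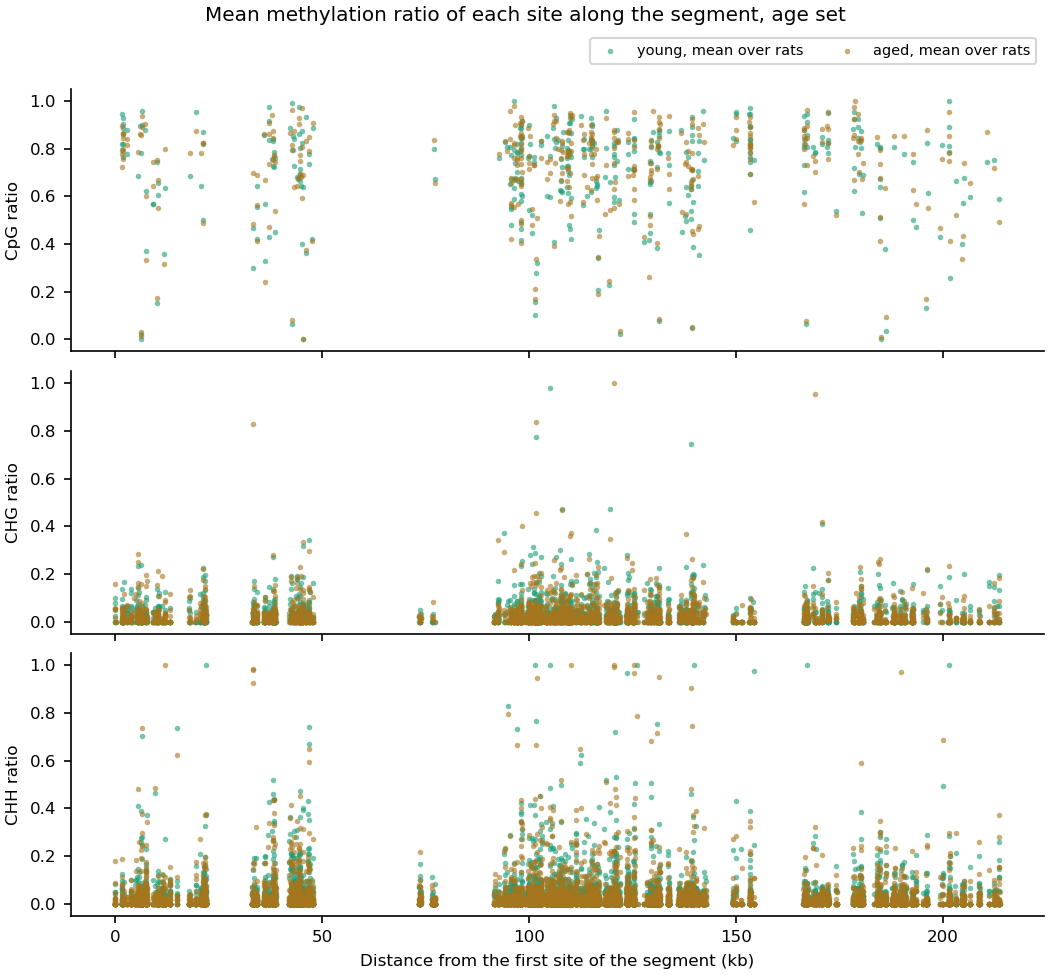
Mean ratio of each site against its distance in kb from the first site, with 1 panel for each of CpG, CHG and CHH, in aged (20 rats) and young (10 rats). Most CpG means lie between 0.5 and 0.9, most CHG and CHH means lie near 0, and a few CHG and CHH sites stand near 1 in 1 age group.

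Most CpGs of the segment were methylated at an intermediate to high level. Of the 384 CpGs in the age set, 180 had a mean ratio of at least 0.5 and under 0.8, 119 had at least 0.8 and under 0.9, and 39 had 0.9 or more. Only 10 were under 0.1, a share of 2.6% against 4.39% of all CpGs outside the segment. These 10 stood apart from each other, with at least 169 bp between neighbours. The lowest, at position 249650, had a ratio of 0 in all 18 rats with a value. At 335630 aged rats had a mean of 0.0843 and young rats one of 0.0779. By window the mean was highest between positions 350000 and 374999, where aged rats had 0.796 and young rats 0.805, and lowest between 400000 and 424999, at 0.630 and 0.642.

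CHG and CHH sites were mostly unmethylated. A mean ratio under 0.1 was found at 93.8% of the CHG and 93.9% of the CHH sites of the age set. The share under 0.1 outside the segment was 96.6% for CHG and 97.3% for CHH. No CHG site of the segment had a mean over all rats of 0.8 or more, and 2 CHH sites had 0.8 or more but under 0.9.

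Ratios in the segment were set against those of the same rat in the rest of chromosome 19. The CpG mean over 30 rats was 0.715 ± 0.0127 (SD) in the segment and 0.680 ± 0.00938 in the rest of the chromosome, and the segment was higher in 29 of 30 rats. The exception was 1 young rat, in which the mean was 0.00795 lower. Over CpGs with a value in at least 20 rats the excess was 0.0639, in place of 0.0348. Taken as a median over CpGs it was 0.0209, and the segment was higher in 20 of 30 rats. Against the other chromosomes, with a CpG mean of 0.707 ± 0.00401, the segment was higher in 24 of 30 rats. The CHG mean was 0.0285 ± 0.00253 in the segment, 0.0272 ± 0.00211 in the rest of the chromosome and 0.0220 ± 0.000471 on other chromosomes. The CHH mean was 0.0264 ± 0.00244, 0.0237 ± 0.00215 and 0.0158 ± 0.000446, respectively. CHG methylation was higher in the segment than in the rest of chromosome 19 in 24 of 30 rats, and CHH methylation in 27 of 30. Taken as a median over sites in place of the mean, the CHG and CHH excess was 0. Against other chromosomes the CHG mean was higher in 29 and the CHH mean in 30 of 30 rats. These are descriptions, since the segment was picked with results of these data known.

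The rats differed in how many of these sites had a ratio. Rat identifiers in the labels fall into 3 blocks of numbers, called series A, B and C from low to high, and the labels do not say what a block stands for. Series A has 11 aged and 3 young rats, series B has 8 aged and 3 young rats, and series C has 1 aged and 4 young rats. The share of the segment's CpGs with a ratio had a median of 86.5% in series A (63.5% to 95.3%), 28.4% in series B (11.7% to 53.9%) and 48.4% in series C (14.1% to 93.2%). The median CpG had a ratio in 18 of the 30 rats, and 15 of the 384 CpGs had one in every rat. Series A thus gave most of the ratios. The number of reads behind a single rat's ratio is not in the tables of ratios, so its depth beyond the minimum of 5 is unknown and no counting error was set.

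**Figure D2:**
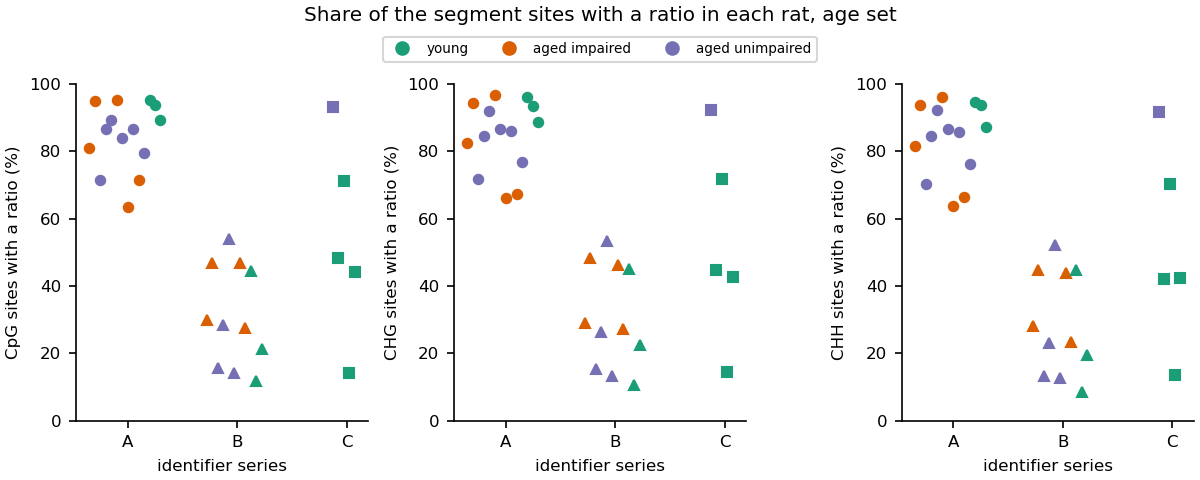
Percent of the segment's sites with a ratio in each rat (vertical axis), by the number series of the rat identifier (horizontal axis), for CpG, CHG and CHH, coloured by group. The CpG shares of series A lie at 63.5% or more and those of series B at 53.9% or less.

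The mean ratio over the CpGs of the segment did not separate aged from young rats. It had a lowest value of 0.693, a median of 0.714 and a highest value of 0.734 in the 20 aged rats, and 0.679, 0.712 and 0.737 in the 10 young rats. The range of the young rats took in that of the aged rats. The tissue holds several cell types, and a change in their shares cannot be told apart from a change of methylation within cells. Aged rats had a mean of 0.717 ± 0.00973 and young rats one of 0.712 ± 0.0173, a difference of 0.00509 that is smaller than the SD in either group. Within series A the aged rats were higher by 0.00424, within series B they were lower (difference -0.00279), and within series C the 1 aged rat was higher than the mean of 4 young rats by 0.00473. The CHG mean was 0.0284 ± 0.00266 in aged and 0.0288 ± 0.00238 in young rats. The CHH mean was 0.0267 ± 0.00230 in aged and 0.0259 ± 0.00276 in young rats. Both differences were also under 1 SD. Within series B the aged rats had a CHG mean of 0.0263 ± 0.00286 and the young rats one of 0.0303 ± 0.000837. The aged minus young value of -0.00401 is larger in size than either SD, and all 4 AU rats (0.0211 to 0.0281) lay below the 3 young rats (0.0296 to 0.0312). The AI rats ran from 0.0256 to 0.0299, so 1 of them reached the young range. Within series A the CHG mean of aged rats was higher by 0.00110. The CHH difference was 0.000904 in series A and -0.00114 in series B.

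Nor did these means separate AI from AU rats without overlap. The CpG mean in the impairment set ran from 0.704 over a median of 0.710 to 0.725 in the 9 AI rats, and from 0.709 over 0.720 to 0.730 in the 11 AU rats. The mean was 0.712 ± 0.00729 in AI and 0.718 ± 0.00630 in AU rats, a difference of -0.00577 that is under 1 SD. The difference was -0.00242 in series A, with 5 AI and 6 AU rats, and -0.0126 in series B, with 4 and 4. In series B the AI rats (0.706 to 0.710) all lay below the AU rats (0.713 to 0.730), and in series A the groups overlapped. The series B rats had a ratio at few sites, with a median of 153.5 CpGs in AI and 86 in AU rats. The CHG mean was 0.0294 ± 0.00178 in AI and 0.0276 ± 0.00334 in AU rats, and the CHH mean was 0.0258 ± 0.00281 and 0.0266 ± 0.00189. In series B the CHG mean was 0.0280 in AI and 0.0241 in AU rats, and in series A it was 0.0306 and 0.0296.

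**Figure D3:**
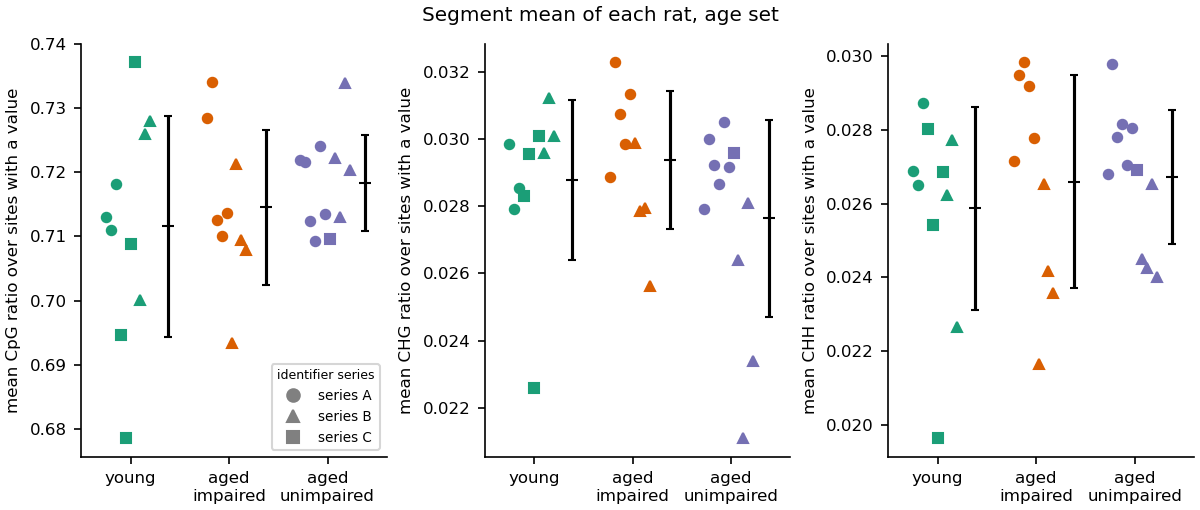
Mean ratio over the segment's sites with a value in each rat of the age set, by group, for CpG, CHG and CHH. Points are rats, their shape gives the number series of the identifier, and the black bars are the mean and SD of each group. The groups overlap in each of the 3 contexts.

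Aged and young rats were compared at each CpG to ask which sites of the segment differ with age. With an unequal-variance test at an unadjusted threshold of 0.05, 22 of the 384 CpGs passed, which is 5.73%, and the share over all CpGs of the series was 6.13%. The 22 include 1 CpG that the study lists for an age difference. The ratio was higher in aged rats at 13 of the 22, or 3.39% of the CpGs against 2.41% in the series, and lower at 9, or 2.34% against 3.72%. With limma's moderated test 27 passed without adjustment, which is 7.03%, against 6.64%. No CpG of the segment passed in either test after Benjamini-Hochberg adjustment over all CpGs, and the share over the series was 0.0714% with the first test and 0.0398% with limma. The share of called CpGs in the segment was near the share in the whole series.

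The CpGs with the lowest p in this comparison are given as examples. At position 405876 the ratio ran from 0.269 over a median of 0.370 to 0.833 in 15 aged rats, and it was 0.238, 0.333, 0.211 and 0.25 in the young rats with a value. The ranges overlapped, and the highest aged value came from a series B rat. The means were 0.412 and 0.258, with an adjusted p of 0.735 in limma. At 357459 the ratio ran from 0.571 over 0.8 to 1 in 9 aged rats and from 0.286 over 0.417 to 0.8 in 6 young rats. The means, 0.785 and 0.460, gave the widest gap among these sites, with an adjusted p of 0.381 in limma, and no rat of series B had a value. Without series C this site no longer passed the unadjusted threshold. At 388995 the direction was the other way, with 0.2, 0.4 and 0.6 as the lowest, median and highest value in 8 aged rats and 0.4, 0.690 and 0.833 in 6 young rats. The means were 0.411 and 0.672, with an adjusted p of 0.458 in limma.

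At 341908, between 2 of the CpGs listed under LOC100912892, the aged rats ran from 0.5 over 0.760 to 0.917 and the young rats had 0.571, 0.538, 0.583 and 0.375. Among the aged rats 1 of 14 lay within the young range. The means were 0.736 and 0.517, with an adjusted p of 0.423 in limma. At 311882, in the stretch listed under AABR06096719.1, the aged rats ran from 0.611 over 0.796 to 1 and the young rats from 0.545 over 0.661 to 0.8. The means were 0.795 in 18 aged and 0.662 in 8 young rats, with an adjusted p of 0.479 in limma. At 335536 the means were 0.882 and 0.786, with an adjusted p of 0.753 in limma. This site no longer passed the unadjusted threshold without series B.

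The study lists CpGs with an age difference whose methylation was also correlated, in either direction, with the RNA level of their gene. Among them is 1 CpG of the segment, at position 342492 in an intron of LOC100912892, with a negative correlation. Its ratio ran from 0.556 over 0.727 to 1 in 15 aged rats and from 0.467 over 0.618 to 0.733 in 6 young rats. The ranges overlapped. The means were 0.726 ± 0.113 and 0.606 ± 0.106. No test is given for it, since it was listed for its age difference in these rats.

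AI and AU rats were compared in the same way to ask which sites differ with impairment among aged rats. Of the 441 CpGs in the impairment set, 20 passed the unadjusted threshold, which is 4.54%, and the share over all CpGs was 4.1%. The 20 include 3 CpGs that the study lists for impairment. AI rats were higher at 12 of the 20, or 2.72% of the CpGs against 2.08%, and lower at 8, or 1.81% against 2.02%. With limma 28 passed without adjustment, which is 6.35%, against 5.51%. After adjustment no CpG of the segment passed in either test, and the shares over the series were 0.0111% and 0.00989%. Again the share in the segment was near that in the series.

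The CpG with the lowest p was at position 335440. Its ratio ran from 0.795 over 0.905 to 1 in 9 AI rats and from 0.571 over 0.75 to 0.833 in 10 AU rats. The AI rats were the higher group, and only the top of the AU range reached the lowest AI values. The means were 0.903 ± 0.0829 and 0.737 ± 0.0811, with an adjusted p of 0.567 in limma. At 319300 the ratio ran from 0.714 over 0.909 to 1 in 7 AI rats and from 0.615 over 0.769 to 0.882 in 10 AU rats, with an adjusted p of 0.801 in limma. Without series B it no longer passed the unadjusted threshold. At 376481 the 5 AI rats had 0.818, 0.714, 0.682, 0.714 and 0.75, and the 9 AU rats ran from 0.714 over 0.889 to 1. Here AU rats were higher, with means of 0.873 against 0.736 and an adjusted p of 0.791 in limma.

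At 312079 the AI rats had 0.833, 1, 1 and 1 and the AU rats 0.857, 0.714, 0.714, 0.714 and 0.667. The groups overlapped through 1 rat on each side. The means were 0.958 and 0.733, with an adjusted p of 0.688 in limma. At 281359 the AI rats had 0.667, 0.75, 0.8 and 0.833 and the AU rats 0.571, 0.667, 0.5 and 0.444. The groups met at 0.667, and the adjusted p was 0.776 in limma.

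The widest gap at any of these CpGs was at position 314425, an intronic CpG that the study lists under AABR06096719.1. In the impairment set the 5 AI rats had 0.625, 0.545, 0.5, 0.167 and 0.333, and the 4 AU rats had 0.833, 0.857, 1 and 1. The groups did not overlap, and the means were 0.434 and 0.923. No test is given for this listed CpG. All 9 rats belonged to series A. The AI ratios at this site were not the same in the other set of calls. The first AI rat had 1 in the age set in place of 0.625, the second had 0.909 in place of 0.545, and the other AI rats had no ratio. The 4 AU rats had the same ratio in both sets. With the age set's values the AI mean was 0.955 over 2 rats, which is fewer than the 3 rats per group required here, so no test was made, and 3 young rats had a mean of 0.595.

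**Figure D4:**
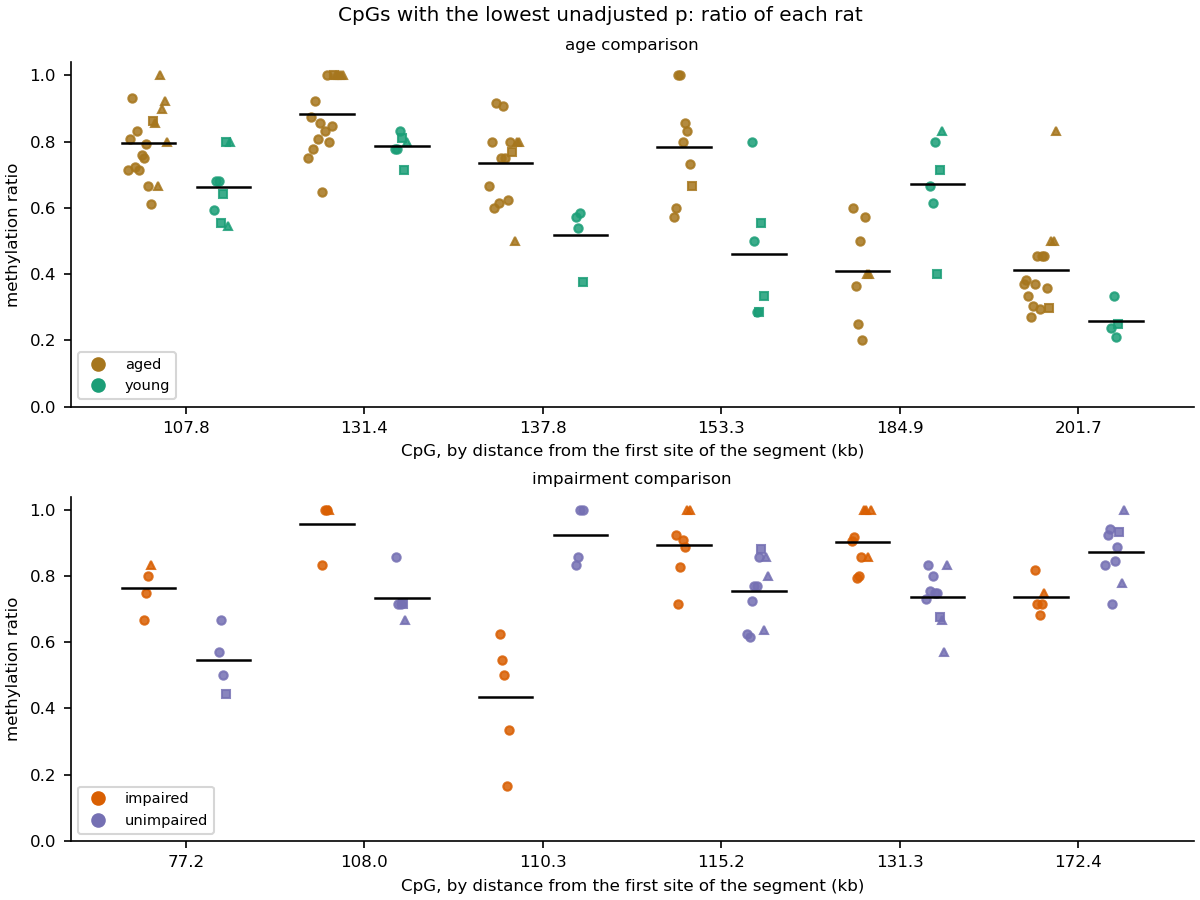
Ratio of each rat (vertical axis) at the 6 CpGs with the lowest p in each comparison, placed by distance in kb from the first site of the segment. Point shapes give the number series (circle A, triangle B, square C) and black lines the group means. The groups overlap at all but 1 of these CpGs, which has a mean of 0.434 in impaired and 0.923 in unimpaired rats.

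The study lists 13 CpGs of the segment for the impairment comparison, chosen there by correlation both with the number of trials and with the RNA level of the gene. Those scores were not used here, so AI and AU means are set side by side, with no test. Of the 7 listed under AABR06096719.1, 6 had the higher mean in AI rats, and the CpG at 314425 was the exception. Under LOC100912892 the CpG at 343643 was 1 of 6 with the higher mean in AI rats. Within series A, 2 of the other CpGs had the higher mean in AI rats too, by 0.0396 at 400438 and 0.0536 at 416459. Over all CpGs of the segment 50.6% had the higher mean in AI rats, and over the series 49.6%. The largest of the differences under LOC100912892 was at 394712, where 3 AI rats had 0.667, 0.571 and 0.714 and 4 AU rats had 1, 0.75, 0.929 and 0.8. The groups did not overlap. At 300594, which the study places at an exon and intron boundary of AABR06096719.1, 3 AI rats had 0.75, 0.615 and 0.667 and 5 AU rats had 0.6, 0.455, 0.5, 0.5 and 0.353. The groups did not overlap here either.

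CpGs with a value in every rat show the spread at sites that no rat lacks. The lowest among them were 3 neighbours. At position 302215 the ratio ran from 0.25 over 0.493 to 0.706 in aged and from 0.333 over 0.505 to 0.667 in young rats. At 302213 it ran from 0.278 over 0.491 to 0.714 and from 0.167 over 0.418 to 0.526. At 302179 the means were 0.642 in aged and 0.579 in young rats. Among the highest, the CpG at 376463 had 0.955 ± 0.0414 in aged and 0.950 ± 0.0424 in young rats. The CpG at 370657 had 0.885 ± 0.0911 in aged and 0.936 ± 0.0545 in young rats, and the one at 370695 had 0.878 ± 0.0791 and 0.879 ± 0.113. The rats of 1 group thus spanned more of the scale at the lowest CpGs than at 376463.

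The tables give no strand, so CpG cytosines at adjacent positions were taken as both strands of 1 CpG, with each cytosine in 1 pair. This gave 77 pairs in the segment, and a pair that joins cytosines of neighbouring CpGs cannot be told apart without the sequence. The ratios of a pair in the same rat differed by a median of 0.128, against 0.118 over all such pairs of the series. The means over rats differed by a median of 0.0444, against 0.0550 over the series. No pair of the segment differed by over 0.3, and 256 of 8652 pairs of the series did. With the first cytosine higher, the widest gaps were 0.297 at position 342057, 0.265 at 337911 and 0.242 at 300593. With it lower, the widest was -0.222 at 343776. Across the 77 pairs the site means of both cytosines had a Pearson r of 0.728, which is lower than the 0.876 over all such pairs of the series. The members of a pair share their libraries and position, so these values are descriptions across sites.

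Some CHG and CHH sites were methylated in most rats. The CHH site at position 335050 had a ratio from 0.4 over 0.733 to 0.9 in 16 aged rats and from 0.667 over 0.714 to 1 in 7 young rats. Every rat with a value there had a ratio of at least 0.4. At the CHH site at 250948 the mean was 0.649 ± 0.157 in the aged and 0.671 ± 0.312 in the young, and at its neighbour at 250950 it was 0.594 ± 0.123 and 0.742 ± 0.139, with an adjusted p of 0.220 in limma. Among CHG sites with a value in at least 20 rats, the highest was at 312211, with 0.469 ± 0.192 in aged and 0.472 ± 0.204 in young rats. The CHG sites at 323812, 342178, 249476 and 242273 followed, with aged means of 0.346, 0.366, 0.332 and 0.281 and young means of 0.474, 0.231, 0.316 and 0.273. The aged rats had the same ratios at these 8 sites in both sets of calls.

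CHG and CHH sites were compared between groups if either group's mean exceeded 0.1. A site can enter through the group where it is high, so the shares called are read only beside those over all sites under the same filter. The adjusted p of single CHG and CHH sites was also computed over the sites that this filter kept. Those p-values are therefore given as descriptions and not as support for a difference. For age, 26 of 248 CHG sites passed the unadjusted threshold, which is 10.5%, against 9.52% over all CHG sites tested. Of the CHH sites 63 of 584 passed, which is 10.8%, against 9.55%. For impairment, 19 of 278 CHG sites passed, which is 6.83%, against 6.59%, and 53 of 669 CHH sites, which is 7.92%, against 6.44%. After adjustment over all sites tested 7 CHG sites remained past the threshold for age, which is 2.82%, against 2.81% over the series, and 24 CHH sites, which is 4.11%, against 3.18%. For impairment 1 CHG site passed, which is 0.36%, against 1.03%, and 10 CHH sites, which is 1.49%, against 1.09%. With limma the adjusted numbers were 9 CHG sites for age, or 3.63% against 3.44%, and 26 CHH sites, or 4.45% against 3.93%. For impairment they were 2 CHG sites, or 0.719% against 1.27%, and 13 CHH sites, or 1.94% against 1.36%.

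The filter was changed after seeing the data. With the mean over all rats, blind to group, required to exceed 0.1, the adjusted numbers were 7 CHG and 25 CHH sites for age, which is 4.24% against 4.35% and 5.66% against 4.59% over all sites. For impairment they were 1 and 10, which is 0.538% against 1.52% and 2.11% against 1.6%. With no filter they were 3 of 2648 CHG and 20 of 7222 CHH sites for age, or 0.113% against 0.114% and 0.277% against 0.0945%. For impairment they were 0 of 2835 and 8 of 7752, or 0% against 0.0437% for CHG and 0.103% against 0.0348% for CHH. Without adjustment or filter, 121 CHG and 205 CHH sites passed for age, which is 4.57% against 2.15% and 2.84% against 1.46%. For impairment 44 and 91 passed, which is 1.55% against 0.832% and 1.17% against 0.54%. Without a filter the segment's share was above that of the series in these counts, other than the adjusted CHG ones. In the age set the segment also had a smaller share of sites with a mean under 0.1. It was 93.8% against 96.6% outside for CHG and 93.9% against 97.3% for CHH. The median site had a ratio in 18 rats (CHG) and 17 rats (CHH), against 15 outside. Whether level and coverage account for these shares was not tested.

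Nearly all the sites past the adjusted threshold were near 1 in one group and near 0 in the other. For age, 6 of the 7 CHG and 22 of the 24 CHH sites differed by more than 0.5 between the group means, and the groups overlapped at none of these. For impairment the 1 CHG site and the 10 CHH sites did so too. Outside the segment, 85.1% of the CHG and 86.6% of the CHH sites past the adjusted threshold for age differed by more than 0.5, and 85.9% and 90.2% of those for impairment, so the shares in the segment were near those elsewhere. The groups did not overlap at 89.1% and 89.5% of those outside sites for age and at 98.0% and 98.3% for impairment, against 85.7% and 91.7% for age inside. At 16 CHG and CHH sites of the segment, however, the same aged rats had a ratio in one set of calls that differed by more than 0.5 from their ratio in the other. They made up 0.127% of the CHG sites of the segment in both sets, with 3 of 2359, and 0.202% of the CHH sites, with 13 of 6420. Over all sites in both sets these shares were 0.11% and 0.0896%. No CpG of the segment moved by this much.

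All 16 sites that moved were past the adjusted threshold for age. They were 3 of the 6 CHG and 13 of the 21 CHH sites past it that are in both sets. For impairment, the CHG site and all 9 CHH sites that are in both sets were among them. What share of the called sites outside the segment moved was not counted, so this is not read as particular to the segment. At each of the 16 sites a group of aged rats moved together. Of the 118 ratios that could be compared, 60 were lower in the impairment set by more than 0.5, none was higher, and the other 58 were equal in both. AI rats alone moved at 10 sites, AU rats alone moved at 2 and both groups at 4. At 1 of the sites where AU rats alone moved, the CHG site at position 305785, no AI rat had a ratio in both sets. In no group at any site did some rats move and others not.

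The CHH site at 324641 had the most rats. Of the 15 aged rats in the age set, 14 had a ratio of 1 and the other had 0.889, while 8 young rats ran from 0 over 0 to 0.0625. The means were 0.993 and 0.0171, with an adjusted p of 1.11e-23 in limma. The 9 AI rats of the impairment set had ratios between 0 and 0.0714, and the 8 AU rats had between 0.889 and 1. The means were 0.0145 and 0.986 there, with an adjusted p of 3.56e-15 in limma. All 7 AI rats with a ratio in both sets were at 1 in the first and at most 0.0323 in the second, and the 8 AU rats had the same ratio in both. With the age set's aged ratios the difference between AI and AU rats at this site was 0.0139.

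The CHH site at 335514 gave the same pattern. In the age set the 12 aged rats had ratios from 0.833 to 1 and the 10 young rats from 0 to 0.143. In the impairment set the 8 AI rats had from 0 to 0.2 and the 5 AU rats from 0.889 to 1. Of the 12 aged rats compared between the sets 7 had moved, and these 7 were the AI rats.

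At the CHH site at 324793 both groups of aged rats moved. In the age set 9 aged rats had a ratio of 1 and 4 young rats a ratio of 0, with an adjusted p of 5.63e-14 in limma. In the impairment set the AI mean was 0 and the AU mean 0.0114, and all 7 rats compared had moved. The nearby CHG site at 324775 also had 1 in 9 aged and 0 in 5 young rats, and the aged mean in the impairment set was 0.0217 over 15 rats. With the impairment set's aged ratios the age difference was 0.00606 at 324793 and 0.0217 at 324775, and neither passed the unadjusted threshold.

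Some of the sites that moved were close to one another. The CHH sites at 237491, 237496 and 237497 and the CHG site at 237495 form 1 such group. At 237496 the 12 aged rats of the age set had a mean of 0.983 and the 3 young rats one of 0, and the impairment set had 0 in 3 AI rats and 1 in 7 AU rats. Beside them the CpG at 237502 was 1 of 2 CpGs of the segment with another ratio in the other set of calls. Its first AI rat had 0.8 in the age set and 0.667 in the impairment set, and its second 0.647 and 0.5. The other such CpG is the one at 314425 described above, which is 186 bp from the CHH site at 314239 that moved from an aged mean of 1 to 0.0278. At the neighbouring CHH sites at 329416 and 329418, 1 AI rat could be compared and had moved. Of the 159 other CHG and CHH sites within 20 bp of a site that moved, the median ratio in the age set was 0.0104 in aged and 0 in young rats, and the largest difference between aged and young was 0.317, at the CHG site at 305790, where aged rats were lower (0.456 against 0.772). Of the 11 CpGs within 20 bp, the one at 237502 had the largest difference, with means of 0.696 in 12 aged and 0.3 in 3 young rats of the age set.

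**Figure D5:**
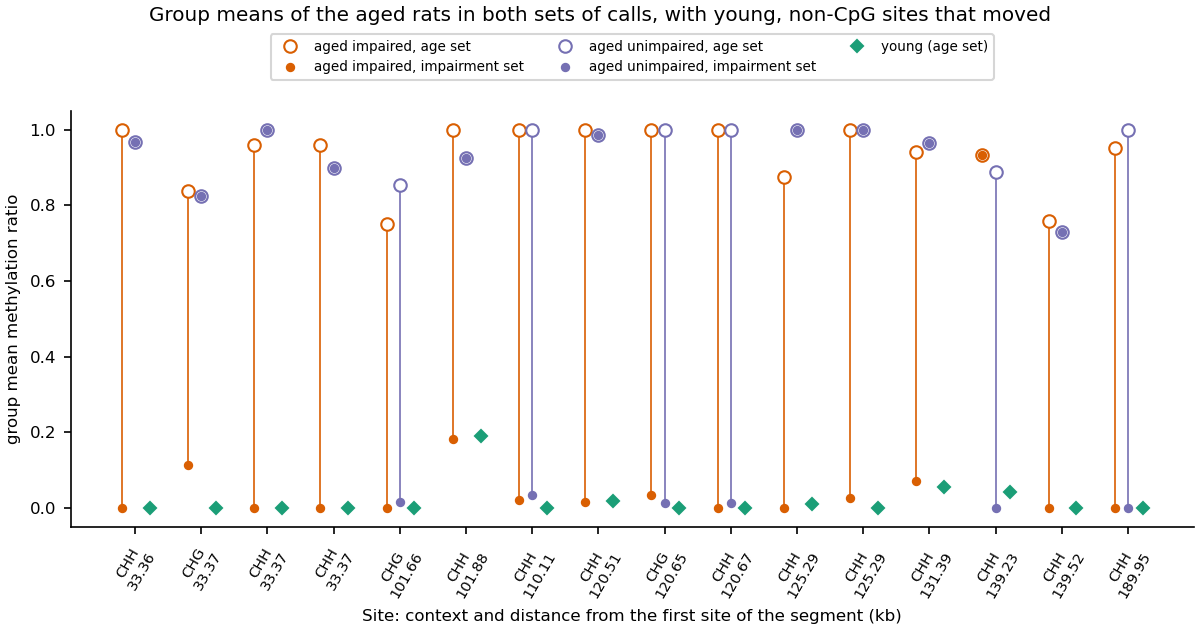
Group mean ratio (vertical axis) at the 16 CHG and CHH sites that moved by more than 0.5 between the sets of calls, placed in order along the segment and labelled by context and distance in kb from the first site. Open circles are the age set and filled circles the impairment set. At 10 sites the impaired rats alone fall to near the young mean, for example from 1 to 0.0145, at the site where the unimpaired rats stay at 0.986.

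The sites with the opposite direction, near 0 in aged and near 1 in young rats, had the same aged ratios in both sets wherever they were in both. At the CHH site at 343929 the mean was 0.00347 in 18 aged rats and 1 in 7 young rats, with an adjusted p of 9.14e-28 in limma. At the CHH sites at 371358, 405690 and 226075 all young rats with a value had a ratio of 1, and the aged means were 0.00832, 0.0114 and 0.00440. At the CHG site at 309240, 19 aged rats ran from 0 to 0.167 and the young rats had 1, 0.923, 1 and 1, with an adjusted p of 5.35e-18 in limma. At the CHG site at 343234, 20 aged rats had a mean of 0.0158 and 4 young rats 0.745. The young rats are in the age set alone, so their ratios at these sites have no second call to be set against. The sites named here entered the comparison through the young rats, the group where they are high, so their adjusted p is only a description.

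The sites past the adjusted threshold for age without such a jump were 1 CHG and 2 CHH sites. At the CHG site at 312706 the mean was 0.185 in 12 aged rats and 0.0167 in 5 young rats, with overlapping ranges and an adjusted p of 0.0654 in limma. The AI mean was 0.276 and the AU mean 0.140 at that site. At the CHH site at 375047 the means were 0.207 and 0.0179, and at the CHH site at 417821 they were 0.153 and 0, with adjusted p of 0.303 and 0.236 in limma.

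The count of adjusted sites was therefore computed again over the sites that are in both sets with the same ratio in every aged rat. Under this choice, made after seeing the data, 2 CHG sites and 6 CHH sites of the segment passed for age and no CHG or CHH site passed for impairment. The shares over all sites tested were then 0.82% and 0.842% for age and 0.0288% and 0.015% for impairment. Without adjustment, 32 CHH sites passed for impairment in place of 53. The share over all sites under this choice is not set beside that count, so its fall is not read as a result about the segment. This choice also leaves out sites that are in 1 set only, and 509 CHH sites were tested for impairment in place of 669. It checks the aged ratios alone, since young rats are in 1 set. It can therefore leave out sites where aged rats moved, but not sites where young ratios would differ in another call. Sites near 0 in aged and near 1 in young rats can thus stay without a check of the young side.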

How the data were processed

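Whole genome bisulfite sequencing libraries of the mPFC of 30 rats were used. Per the study's methods, the authors used trimmomatic for trimming and BSMAP for alignment to rn5. The DMAP2 pipeline with cscall served for filtering of unconverted bases and for the calls. Versions are not given in the sources used here. The deposited values are ratios, that is the fraction (0 to 1) of reads methylated, per rat and cytosine, with no scaling between rats. A ratio was kept from 5 reads on and a site with at least 3 rats per group. Read numbers per ratio are not in the tables of ratios, so the depth of a single ratio is unknown and no interval was set. The mean depths that the study states were not used here.

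Members were the sites at positions 200000 to 450000 of chromosome 19, and members, gene lists and comparisons were chosen with earlier results of these data known. Welch's test, 2-sided, was run at every site of each set and context (CHG and CHH with a group mean over 0.1), with Benjamini-Hochberg adjustment over all sites tested. Where neither group had any spread, unequal means were counted as past the threshold. Adjusted p-values of single sites are from limma 3.58.1 (R 4.3.3, moderated test on the ratios). Python 3.11.15, pandas 2.3.3 and numpy 2.4.6 served for the remaining steps, matplotlib 3.10.9 for plots, and the per-site test was checked on simulated data. Named sites were, per comparison, the 6 CpGs and 3 CHG and 3 CHH sites with the lowest p in Welch's test (ties by position), the CpGs in the study's lists, the 3 highest and 3 lowest CpGs with a value in every rat, and the 5 highest CHG and CHH sites with at least 20 rats. Sites that moved between the sets were named after their values were seen. Each rat is 1 library, and no pair of the 30 rats agreed closer than a mean difference of 0.120 over the segment's shared CpGs. Gene names and features of listed CpGs are those of the study's lists. Alternatives covered the test, rats per group, number series, bounds, ratio filter and set of calls.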

Additional observations from a re-analysis of the deposited data

Results flagged for a closer look

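In groups of 4 to 10 rats, a single rat that stood far from the others of its group was looked for in the segment means and at each named site. Of 67 groups examined 11 had such a rat, and chance alone gives about 1 in 20 for values without ties. That rate does not apply where all the other rats share 1 ratio, as at positions 312079 (AI), 343643, 309240 and 324641 (AU), since any other value then stands apart. Among the segment means, 1 young rat of series C had a CHG mean of 0.0226, with the next young rat at 0.0279.

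At CpGs, 1 young rat had 0.167 at position 302213 with the next at 0.391, and 1 AI rat had 0.5 at 374881 with the next at 0.810. At 312079, 1 AI rat had 0.833 with the others at 1, and 1 AU rat had 0.857 with the next at 0.714. At 343643, 1 AI rat had 0.857 with the others at 1. At the CHG site at 342178 a young rat had 0.615 with the next at 0.2, and at the CHH site at 335050 a young rat had 1 with the next at 0.765. At the CHG site at 309240 a young rat had 0.923 with the others at 1. At the CHH site at 324641, in the impairment set, 1 AI rat had 0.0714 with the next at 0.0323, and 1 AU rat had 0.889 with the others at 1.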

How the results depend on the processing

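All 54 differences between segment means of groups under another setting stayed within 1 SD of the value given. That SD is the larger of the 2 groups' SDs between rats, for age CpGs 0.0173 beside a difference of 0.00509. A change of sign can therefore fall within it, so the 54 do not show that the direction held. Numbers of sites past a threshold moved with the settings. For age CpGs they were 22 as given, 13 with at least 5 and 5 with at least 8 rats per group, and 10 without series A. For age CHG sites they were 26 as given, 8 and 0 with at least 5 and 8 rats, 5 without series A, 41 with limma on logit ratios, 121 without the filter on the mean ratio, 15 with the filter on the mean over all rats and 7 with a mean over 0.2. For age CHH sites they were 63 as given, 23, 3, 10 without series A and 205 without the filter. For impairment CpGs they were 20 as given, 11, 4 and 2 without series A. For impairment CHG sites they were 19 as given, 12, 2, 3 without series A, 31 with logit ratios, 29 with the number series as a covariate, 11 with the segment from 250000 to 400000, 44 without the filter, 9 with the filter on the mean over all rats and 6 with a mean over 0.2. For impairment CHH sites they were 53 as given, 25, 8, 7 without series A, 34 with the narrower segment, 32 with the same ratios in both sets, 91 without the filter, 32 with the filter on the mean over all rats and 27 with a mean over 0.2. Fewer sites and rats were tested under the stricter settings. The share over all sites is not set beside most of these counts, so a fall or rise is not read as a result about the segment. With the filter on the mean over all rats the share for age CHG sites was 9.09%, against 9.78% over all sites. For impairment it was 4.84% against 5.95% (CHG) and 6.75% against 6.0% (CHH). For the 0 CHG sites for age with 8 rats, 23 sites were tested.

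The adjusted numbers were tried under settings chosen after seeing the data. Here too the share over all sites under each setting is not set beside the counts, so small counts are not read against the series. For age CHG sites they were 7 as given, 2 with at least 5 rats, 0 without series A, 3 without the filter and 2 with the same ratios in both sets. For age CHH sites they were 24 as given, 5, 2 without series A, 12 without series C and 6 with the same ratios. For impairment CHG the number was 1 as given, 2 with limma and 0 with 5 rats, without any 1 series, without the filter or with the same ratios. For impairment CHH sites they were 10 as given, 2, 0 without series A and 0 with the same ratios.

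The segment exceeded the rest of chromosome 19 by 0.0348 for CpG, 0.00134 for CHG and 0.00275 for CHH. Against other chromosomes this was 0.00788, 0.00658 and 0.0106. Over CpGs with at least 20 rats it was 0.0639, and the median over CHH sites gave 0.

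At single sites, 196 of 210 values kept their direction and side of the unadjusted threshold. Part of these could not do otherwise, so the count is not a measure of robustness. Values by median took the p of the main setting and so could not change side. At sites with the same aged ratios in both sets, the exchange of sets could not change the value. The impairment difference at the CHG site at 237495 became 0.0123 and that at the CHH site at 324641 became 0.0139 with the aged ratios of the age set, both against the direction given. The cause was not tested. No paired analysis was possible because each rat is in 1 group and the labels give no number shared between groups.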
